A study of Mus musculus with 2 samples.

Results

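The platelet-derived growth factor (PDGF) system and pericyte genes described here are 10 genes read by 21 probe sets in whole mouse lung of the E15.5 embryo (the number is the embryonic day). They were the ligand genes Pdgfa and Pdgfb, the receptor genes Pdgfra and Pdgfrb, and the pericyte genes Cspg4, Rgs5, Abcc9, Kcnj8, Ndufa4l2 and Cox4i2. A probe set was taken when the platform annotation assigned it to exactly 1 of these genes, whatever its value. The array held 18193 genes in all, and 0 further probe sets named a listed gene together with another gene. The series compared lungs of TAZ-deficient embryos with lungs of wild type littermates, on 1 one-colour Affymetrix expression array for each genotype. Each array carried a pool of 4 total RNA samples. TAZ, the product of Wwtr1, is a transcriptional coactivator that the Hippo kinase cascade holds back and that acts through TEAD DNA-binding proteins. The sources used here do not give the allele behind the deficiency, the strain or the sex of the embryos.

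PDGF ligands are dimeric growth factors that act on a pair of receptor tyrosine kinases, PDGFR-alpha and PDGFR-beta. In the developing lung PDGF-A, made mainly by the epithelium, acts on PDGFR-alpha of mesenchymal cells, and this arm is known for its part in the formation of alveolar myofibroblasts and elastic tissue. PDGF-B, made by endothelial cells, acts on PDGFR-beta and recruits pericytes, the mural cells that wrap small vessels. Several genes that mark pericytes encode a potassium channel, a signalling brake and isoforms of respiratory chain subunits.

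No gene of the set differed by 1.5-fold or more between TAZ-deficient and wild type lung. Judged by the brightest probe set of each gene, 8 of 10 were within 1.2-fold. Of all 12032 measured genes (defined below) 9795 were within 1.2-fold, and 2.75% differed by at least 1.5-fold. Rgs5 was at the edge of 1.2-fold, falling within it under 5 of 8 other ways of processing. Cspg4 was 1.35-fold higher and Rgs5 was lower (log2 ratio -0.27) in the TAZ-deficient pool. Pdgfra, Rgs5 and Abcc9 read lower in the TAZ-deficient pool at every one of their probe sets, and Cspg4 read higher at both of its probe sets. Such agreement was not rare among genes with all probe sets above the floor given below. All ratios were below 0 for 21.3% of those with 3 probe sets and 13.3% with 4, and above 0 for 25.8% with 2. Neither genotype had a second array, so that no difference below could be tested against replicates, and each is given as a signal on both arrays and a fold. A whole lung reading also cannot tell fewer cells of a type from less RNA per cell.

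Signals are linear intensities that had been scaled to a trimmed mean of 100 on each array, and every log2 ratio divides TAZ-deficient by wild type. The median of all signals, 15.2 units, served as a floor, and a gene or probe set counted as measured when it was above the floor on either array. All 21 probe sets of the set were above the floor on both arrays. Wwtr1 followed the labels, with 11.3, 6.4 and 3.9 units in TAZ-deficient lung against 791.2, 222.9 and 176.9 units in wild type lung, at least 52.1-fold, 14.7-fold and 11.6-fold lower. Of 12032 measured genes, 331 (2.75%) differed by at least 1.5-fold and 2237 (18.6%) by at least 1.2-fold. Of 21294 measured probe sets the shares were 3.43% and 20.9%, in each case in either direction. The SD of the difference in log2 ratio between the 2 brightest probe sets of a gene, divided by the square root of 2, was 0.20 over 5637 genes. This is a spread of 1 probe set, and it holds no variation between embryos, pools or arrays.

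**Figure D1:**
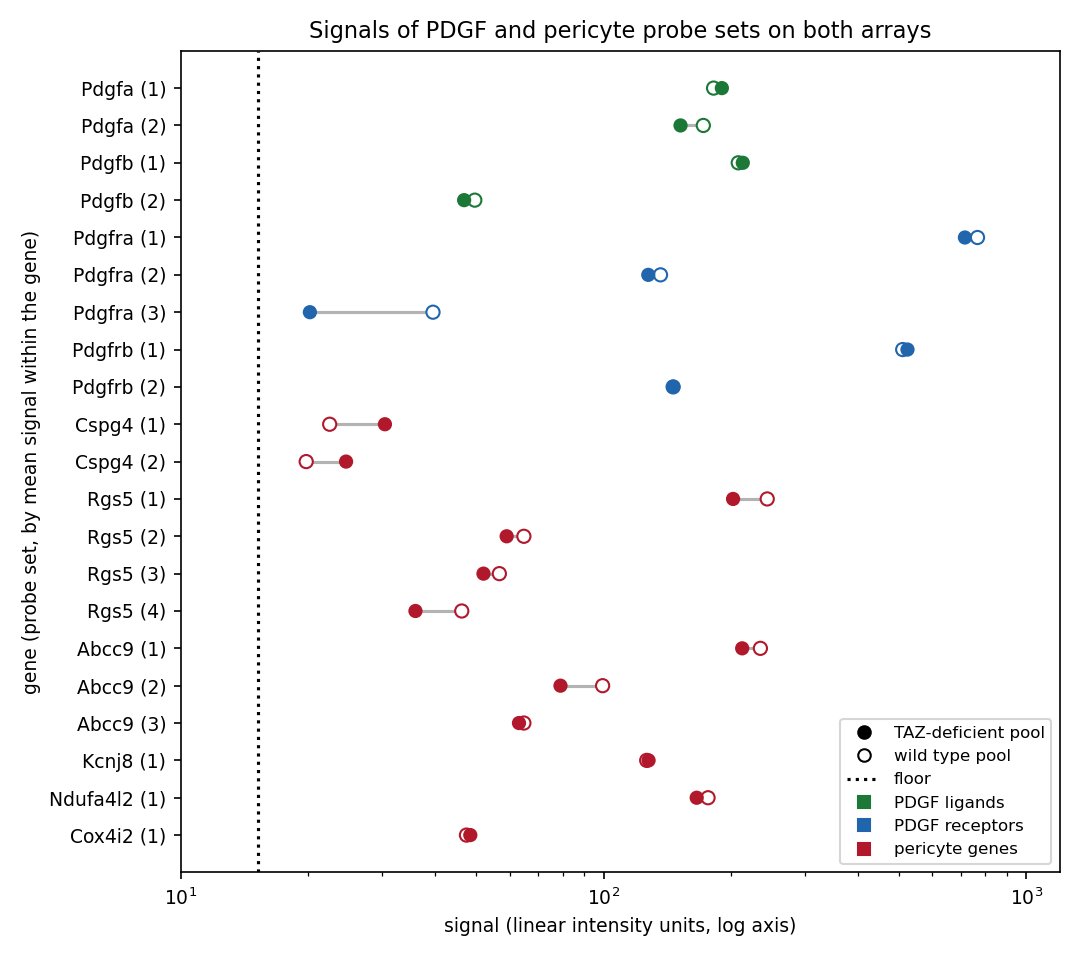
Signal of each of the 21 probe sets (log axis, linear intensity units) in the TAZ-deficient pool (filled) and the wild type pool (open), with the floor of 15.2 as a dotted line. Most pairs of points nearly coincide, the widest gap is that of the third Pdgfra probe set (20.2 and 39.5 units), and all points lie above the floor.

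Promoter sequences are shown for the pericyte genes with several probe sets that all read on one side and for the neighbour of one of them, since TAZ acts on DNA through TEAD proteins. They come from RefSeq on GRCm38.p6, run from 250 bases before to 50 bases after the start of the gene, and are written 5′ to 3′ along the gene. The sequence table matched 6 of the 10 genes, with 7 promoters. The TEAD motif GGAATG, searched on both strands (reverse complement CATTCC), is set in capitals.

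Abcc9, chr6:142702225-142702524, minus strand: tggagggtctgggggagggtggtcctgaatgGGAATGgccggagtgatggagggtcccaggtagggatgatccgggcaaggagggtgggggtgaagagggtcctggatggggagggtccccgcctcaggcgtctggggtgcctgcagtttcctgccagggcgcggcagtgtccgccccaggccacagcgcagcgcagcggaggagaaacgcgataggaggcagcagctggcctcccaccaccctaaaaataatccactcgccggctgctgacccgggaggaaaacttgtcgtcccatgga

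Kcnj8, chr6:142571565-142571864, minus strand: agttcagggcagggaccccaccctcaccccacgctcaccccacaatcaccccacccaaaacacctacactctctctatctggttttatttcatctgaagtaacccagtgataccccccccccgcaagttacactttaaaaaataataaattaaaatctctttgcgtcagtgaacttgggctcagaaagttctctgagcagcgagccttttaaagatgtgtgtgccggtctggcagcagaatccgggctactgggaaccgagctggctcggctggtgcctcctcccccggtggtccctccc

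Rgs5, chr1:169655251-169655550, plus strand: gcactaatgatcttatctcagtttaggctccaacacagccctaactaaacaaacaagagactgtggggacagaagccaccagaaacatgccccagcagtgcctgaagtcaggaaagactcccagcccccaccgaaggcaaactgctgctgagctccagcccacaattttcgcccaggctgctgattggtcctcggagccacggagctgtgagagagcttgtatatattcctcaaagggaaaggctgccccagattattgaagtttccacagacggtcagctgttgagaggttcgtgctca

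Cspg4, chr9:56864854-56865153, plus strand: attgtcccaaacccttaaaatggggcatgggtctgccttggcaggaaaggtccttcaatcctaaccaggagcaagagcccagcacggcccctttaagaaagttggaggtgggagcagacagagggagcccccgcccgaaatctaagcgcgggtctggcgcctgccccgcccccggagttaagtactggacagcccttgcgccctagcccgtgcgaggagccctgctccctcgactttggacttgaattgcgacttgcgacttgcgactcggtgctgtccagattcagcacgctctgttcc

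The motif was found in 1 of the 7 promoters, that of Abcc9, with its first base at position -219 from the start of the gene counted as 0. Of all 32851 promoters of the same length in the table, 14.7% held it. The promoters of Kcnj8, Rgs5 and Cspg4 above, and those of Pdgfra and Pdgfa, did not have these letters in this window. A match of letters is a description of the sequence and not a binding site.

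The ligand genes had nearly equal signals on both arrays. Pdgfa, the ligand of PDGFR-alpha, read 190.5 units in TAZ-deficient lung against 182.1 units in wild type lung at probe set 1449187_at (1.05-fold higher). Its other probe set, 1418711_at, read 152.1 units in TAZ-deficient lung against 172.2 units in wild type lung (1.13-fold lower). The Pdgfa probe sets thus lay on opposite sides of 0, with log2 ratios of 0.07 and -0.18. Pdgfb, the endothelial ligand that recruits pericytes, read 213.5 units in TAZ-deficient lung against 208.3 units in wild type lung at 1450414_at (log2 ratio 0.04). At 1450413_at Pdgfb read 46.8 units in TAZ-deficient lung against 49.6 units in wild type lung (log2 ratio -0.08). The 4 ligand probe sets had a median log2 ratio of -0.02, beside -0.01 over all measured probe sets, and none was 1.2-fold different.

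Both receptor genes were close to wild type signal at their brighter probe sets, and 1 dim probe set of Pdgfra stood apart. Pdgfra, the receptor of lung mesenchymal progenitors, read 715.9 units in TAZ-deficient lung against 766.7 units in wild type lung at 1421917_at, and 127.6 against 136.4 units at 1421916_at. Both were 1.07-fold lower in the TAZ-deficient pool, with log2 ratios of -0.10. The third Pdgfra probe set, 1438946_at, read 20.2 units in TAZ-deficient lung against 39.5 units in wild type lung, 1.96-fold lower. It was the only one of the 21 probe sets past 1.5-fold, and its log2 ratio of -0.97 was the lowest among them. Over all measured probe sets 1.81% were at least 1.5-fold lower, and the share depended on signal. In the lowest of 4 equal bins of mean signal (15.2 to 39.6 units), which held this probe set, 5.07% were at least 1.5-fold lower. In the third and the highest bin, which held the other Pdgfra probe sets, the shares were 0.451% and 0.0939%. The log2 ratios of the 3 Pdgfra probe sets spanned 0.87. Of 792 genes with 3 probe sets, all above the floor on both arrays, 5.3% spanned at least 0.8. All 3 ratios were below 0, as for Pdgfra, in 21.3% of these genes.

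Pdgfrb, the receptor through which PDGF-B recruits pericytes, read 523.6 units in TAZ-deficient lung against 510.1 units in wild type lung at 1436970_a_at (1.03-fold higher). At 1417148_at Pdgfrb read 146.1 units on both arrays. Its ratios therefore lay within 0.04 of 0 on the log2 scale at both probe sets.

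Among the pericyte genes, the calls past 1.2-fold fell on both sides. Cspg4, which encodes the NG2 proteoglycan of the pericyte surface, read 30.4 units in TAZ-deficient lung against 22.5 units in wild type lung at 1423341_at (1.35-fold higher). At 1450944_at Cspg4 read 24.6 units in TAZ-deficient lung against 19.8 units in wild type lung (1.24-fold higher). Both probe sets were in the lowest bin of signal, where the central range of log2 ratios, from the 5th to the 95th percentile, was -0.59 to 0.55, and both Cspg4 values (0.43 and 0.31) lay inside it. Both ratios above 0 were found for 25.8% of 2023 genes with 2 probe sets above the floor on both arrays.

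Rgs5, a regulator of G protein signalling and one of the most used pericyte markers, was lower at 4 of 4 probe sets. It read 202.5 units in TAZ-deficient lung against 243.9 units in wild type lung at 1417466_at (log2 ratio -0.27). The dimmer probe sets read 59.0 units in TAZ-deficient lung against 64.8 units in wild type lung at 1420941_at, 52.0 against 56.7 units at 1420942_s_at, and 35.9 against 46.2 units at 1420940_x_at. These were 1.10-fold, 1.09-fold and 1.29-fold lower, the last from a probe set whose suffix marks possible cross-hybridisation. The 4 log2 ratios ran from -0.36 to -0.12, and all were inside the central range for their bin of signal. Of 285 genes with 4 such probe sets, 13.3% had all ratios below 0.

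Abcc9 and Kcnj8 encode the sulphonylurea receptor SUR2 and the pore subunit Kir6.1, which together form the ATP-sensitive potassium channel of vascular mural cells, and the genes are next to each other on chromosome 6. Abcc9 read 212.8 units in TAZ-deficient lung against 235.0 units in wild type lung at 1435752_s_at (1.10-fold lower). It read 79.1 against 99.5 units at 1435751_at (1.26-fold lower), and 63.1 against 64.8 units at 1420408_a_at (1.03-fold lower). All 3 Abcc9 ratios were below 0, as for 21.3% of the 792 genes with 3 such probe sets, and they ran from -0.33 to -0.04. Kcnj8 read 127.8 units in TAZ-deficient lung against 126.5 units in wild type lung at its single probe set, 1418142_at (1.01-fold higher). The channel's subunits therefore gave log2 ratios of 0.01 for Kcnj8 and -0.14 for the brightest Abcc9 probe set, a gap of 0.16. That Abcc9 probe set is shared between transcripts, and without shared probe sets the gap was 0.35. The spread of 1 probe set was 0.20 (log2 SD), and a gap between genes holds that spread for each of them.

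Ndufa4l2 and Cox4i2 encode isoforms of respiratory chain subunits that pericytes carry at high level and that are known to respond to low oxygen. Ndufa4l2 read 166.1 units in TAZ-deficient lung against 176.7 units in wild type lung at 1434905_at (1.06-fold lower). Cox4i2 read 48.4 units in TAZ-deficient lung against 47.4 units in wild type lung at 1421373_at (1.02-fold higher). Neither was 1.2-fold different. In the same pools 12 of 12 measured hypoxia-induced genes had ratios above 0, 2 of them at least 1.5-fold (Slc2a1, a glucose transporter, 629.5 units in TAZ-deficient lung and 416.0 units in wild type lung, and Ankrd37, an ankyrin repeat gene, 150.6 and 95.8 units). Of all 12032 measured genes 5627 had ratios above 0, and 1.28% were at least 1.5-fold higher. The hypoxia-induced list had a median log2 ratio of 0.40, against -0.09 for Ndufa4l2 and 0.03 for Cox4i2. With the median over probe sets 11 of its 12 ratios were above 0. The count past 1.5-fold in that list ran from 0 to 3 over the alternatives. Whether oxygen had a part in any of these ratios was not tested.

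**Figure D2:**
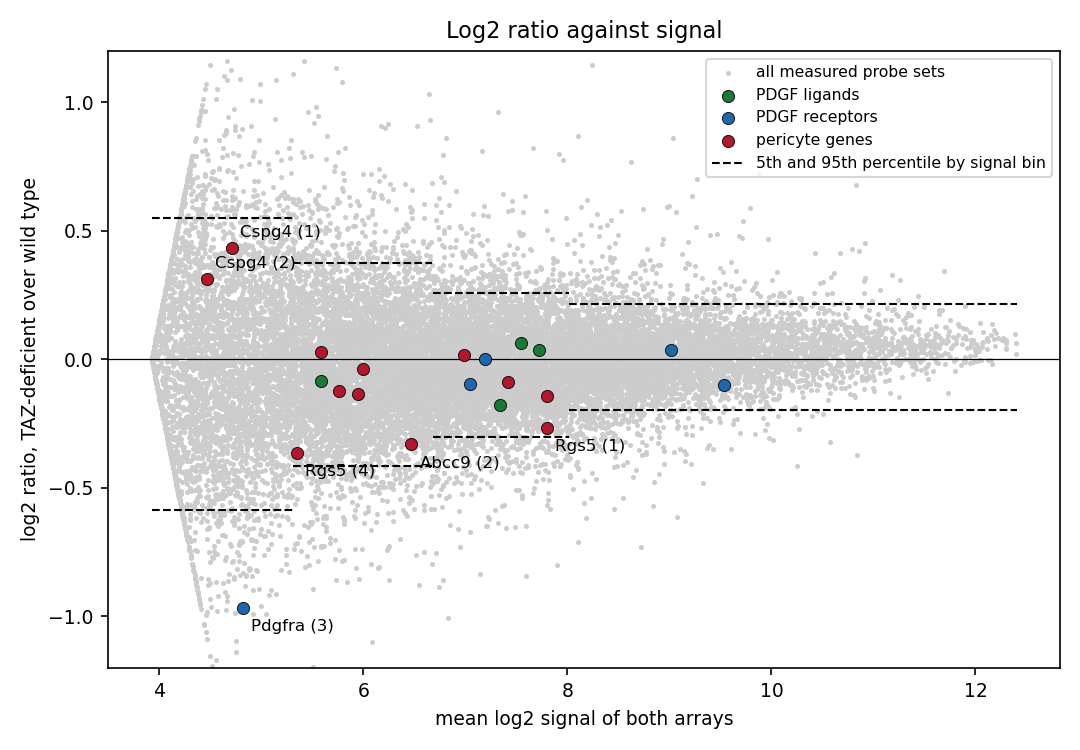
Log2 ratio (vertical, TAZ-deficient to wild type) against mean log2 signal of both arrays (horizontal) for all measured probe sets (grey) and the 21 probe sets of the set (coloured by role), with dashed lines at the 5th and 95th percentile of each of 4 equal bins of signal. Of the 21 probe sets 20 lie between the dashed lines and the third of Pdgfra lies below them, and 39 grey points beyond a log2 ratio of 1.2 in either direction are not drawn.

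As a whole, 13 of the 21 probe sets had ratios below 0, 7 above and 1 at 0, with a median log2 ratio of -0.09. Over all measured probe sets the median was -0.01. Past 1.2-fold there were 2 higher probe sets (both of Cspg4) and 4 lower ones (2 of Rgs5, 1 each of Abcc9 and Pdgfra), in all 28.6%. Of all measured probe sets 9.21% were 1.2-fold higher and 11.7% lower, in all 20.9%. Counted by gene, 1 of 10 was 1.2-fold higher and 1 was 1.2-fold lower, in all 20%. The lower one, Rgs5, came within 1.2-fold with median centring, quantile normalization, loess, the median over probe sets and a pseudocount of 16 in place of the floor, and Abcc9 passed 1.2-fold without shared probe sets. Of all measured genes 8.03% were 1.2-fold higher and 10.6% lower, in all 18.6%. By gene the median log2 ratio was 0.02 (6 above 0 and 4 below), and -0.01 over all measured genes. The sign of the gene median depended on which probe set spoke for a gene, being -0.04 with the median over probe sets.

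**Figure D3:**
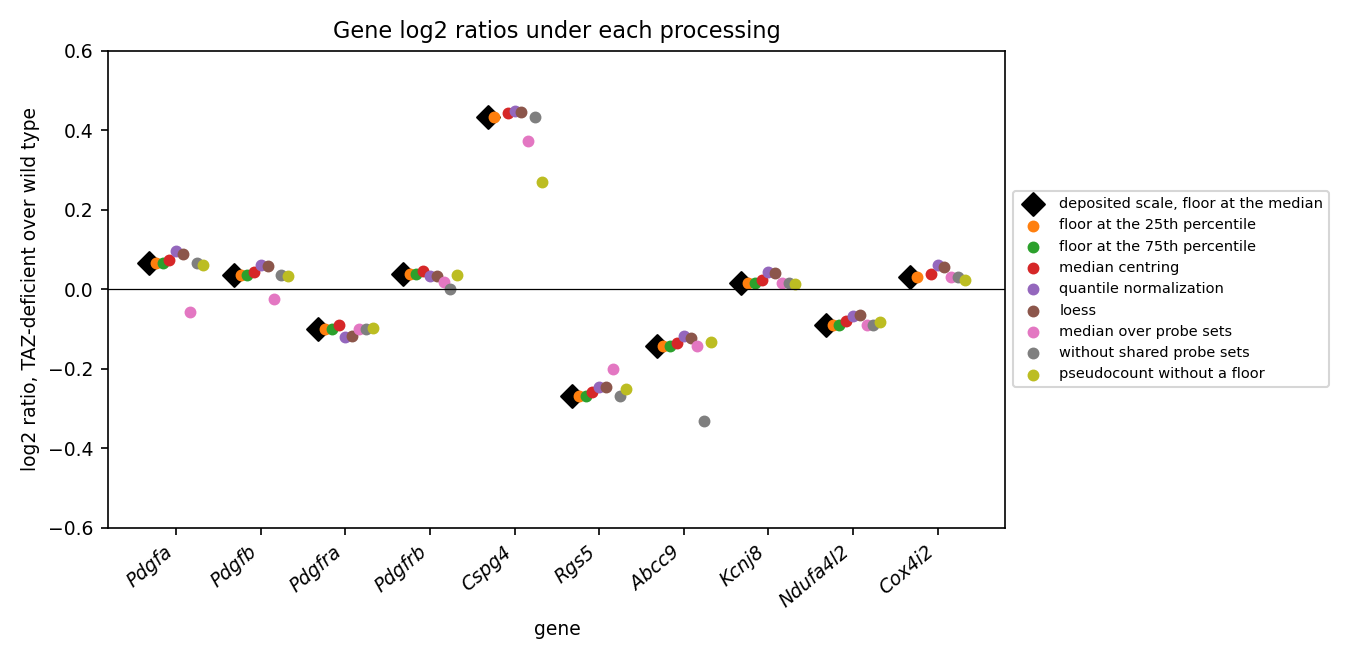
Log2 ratio, TAZ-deficient to wild type, for each of the 10 genes on the deposited scale (black diamond) and under 8 alternative ways of processing (coloured circles). Rgs5, Abcc9, Pdgfra and Ndufa4l2 stay below 0 wherever they were measured. Cspg4, Kcnj8 and Cox4i2 stay above 0, Kcnj8 and Cox4i2 by at most 0.04 and 0.06. Pdgfrb stays at or above 0, while Pdgfa and Pdgfb change side with the median over probe sets.

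The rest of the PDGF family gave ratios on both sides. Pdgfc, a ligand of PDGFR-alpha, read 351.4 units in TAZ-deficient lung against 330.0 units in wild type lung (1.06-fold higher), and its other probe set read 256.7 against 262.4 units. Pdgfd, a ligand of PDGFR-beta, was near the floor, with 10.5 units in TAZ-deficient lung against 22.7 units in wild type lung (at least 1.49-fold lower). Another Pdgfd probe set read 11.5 against 17.0 units (at least 1.12-fold lower), and the last was under the floor on both arrays. Pdgfrl, a PDGF receptor-like gene, read 54.3 units in TAZ-deficient lung against 68.8 units in wild type lung (1.27-fold lower). Of 9 measured genes that process PDGF or regulate its receptors, 0 were 1.5-fold different (median log2 ratio -0.0008). That median was above 0 with median centring, quantile normalization and loess, and without shared probe sets. The brightest were the phosphatase genes Acp1, with 1139.5 units in TAZ-deficient lung against 1221.5 units in wild type lung, and Ptpn2, with 707.3 against 648.4 units. Of 20 measured genes that carry the receptor signal inside the cell, 1 was at least 1.5-fold lower and 0 higher, with 12 ratios below 0 and a median of -0.06. That gene was Plcg1, phospholipase C gamma, which binds activated PDGF receptors, with 234.7 units in TAZ-deficient lung against 359.7 units in wild type lung (1.53-fold lower). The other 2 probe sets of Plcg1 were under the floor on both arrays, and with the pseudocount 0 genes of the list were past 1.5-fold.

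Paralogues of the pericyte genes were mostly slightly higher, with 5 of 6 measured ratios above 0 and a median of 0.11. Rgs4, another regulator of G protein signalling and the gene next to Rgs5 on chromosome 1, was higher at 3 of 3 probe sets, where Rgs5 was lower at 4 of 4. Of 792 genes with 3 probe sets, all above the floor on both arrays, 16.8% had all ratios above 0. Rgs4 read 48.9, 32.3 and 18.9 units in TAZ-deficient lung against 37.0, 23.9 and 18.1 units in wild type lung (1.32-fold, 1.35-fold and 1.04-fold higher). Rgs2 read 711.8 units in TAZ-deficient lung against 650.6 units in wild type lung, and Rgs16 was near the floor, with 3.2 against 19.5 units. Kcnj11, the other Kir6 pore subunit, read 248.2 units in TAZ-deficient lung against 228.4 units in wild type lung. The widely expressed isoforms of the respiratory chain subunits were 1.07-fold (Ndufa4, 1794.7 units in TAZ-deficient lung and 1681.1 units in wild type lung) and 1.05-fold higher (Cox4i1, 2917.9 and 2773.7 units). Abcc8, the other sulphonylurea receptor, was under the floor on both arrays.

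Of 18 further pericyte and mural genes 15 were measured, 4 with ratios above 0 and 11 below, and the median log2 ratio was -0.05. Heyl, a Notch-induced repressor of mural cells, was the only one past 1.5-fold, with 118.3 units in TAZ-deficient lung against 185.2 units in wild type lung (1.57-fold lower) and lower at 3 of 3 probe sets. All 3 ratios were below 0 in 21.3% of genes with 3 probe sets, all above the floor on both arrays. With the median over probe sets or the pseudocount 0 genes of the mural list were past 1.5-fold. Under a floor at the 25th percentile 1 was higher and 2 were lower. Anpep, Vtn and Tbx18 were at or under the floor on both arrays. Smooth muscle genes had 11 of 12 measured ratios below 0 (10 with median centring), a median of -0.19 and 2 genes at least 1.5-fold lower, which were the actin-binding genes Synpo2 (62.9 units in TAZ-deficient lung and 97.2 units in wild type lung) and Cnn1 (79.0 and 118.6 units). Of all 12032 measured genes 6370 had ratios below 0, and 1.47% were at least 1.5-fold lower. Cnn1 was at the edge of 1.5-fold, and the smooth muscle count was 1 with median centring, quantile normalization or loess. A floor at the 25th percentile, or leaving out shared probe sets, gave 3, and a floor at the 75th percentile or the pseudocount gave 0. The summed signal of the smooth muscle list was 7933.3 units in TAZ-deficient lung and 8421.7 units in wild type lung, with Lmod1 at or under the floor on both. That of the 6 pericyte genes was 788.0 units in TAZ-deficient lung and 852.0 units in wild type lung. The part of smooth muscle cells in the lower Rgs5 signal was not tested.

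Heart muscle genes were also read, since heart muscle expresses Abcc9. Of 4 measured heart genes 4 had ratios below 0 and 3 were at least 1.5-fold lower, which were Myl7 (46.2 units in TAZ-deficient lung and 83.6 units in wild type lung), Myh7 (15.4 and 24.9 units) and Tnnt2 (20.1 and 30.6 units). Of all 12032 measured genes 6370 had ratios below 0, and 1.47% were at least 1.5-fold lower. The heart count was 2 with the median over probe sets or without shared probe sets, and 1 with the pseudocount. It was 0 of 1 measured gene under a floor at the 75th percentile. Under a floor at the 25th percentile 6 were measured, 3 at least 1.5-fold lower and 1 at least 1.5-fold higher. Myh7 and Tnnt2 were in the lowest bin of signal, where 5.07% of all measured probe sets were at least 1.5-fold lower. In the bin above it (39.6 to 102.4 units), which held Myl7, the share was 1.63%. The summed signal of the list, most of it from Actc1 (435.1 units in TAZ-deficient lung and 551.9 units in wild type lung), was 516.8 units in TAZ-deficient lung and 691.0 units in wild type lung, with Myh6 and Nppa under the floor on both arrays. The part of heart muscle in the Abcc9 signal was not tested. Glial markers, of interest because Cspg4 and Pdgfra also mark glial precursors, were few, 2 of 4 being measured, with Olig2 and S100b under the floor on both arrays. Sox10 read 12.6 units in TAZ-deficient lung against 19.8 units in wild type lung, and Fabp7 48.9 against 57.7 units. The summed signal of these 2 genes was 61.5 units in TAZ-deficient lung and 77.5 units in wild type lung, and the part of glial cells in the Cspg4 and Pdgfra signals was not tested.

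Apart from 3 embryonic globins among the 5 measured red cell genes, genes of the other cell types gave 0 ratios past 1.5-fold. Of all measured genes 2.75% were past it. Of 12 endothelial genes 0 reached 1.5-fold (median -0.05), the brightest being Emcn (602.3 units in TAZ-deficient lung and 678.8 units in wild type lung) and Esam (655.4 and 685.9 units). Of 14 lung mesenchyme genes 0 did (median 0.02, and -0.01 under quantile normalization and loess), with Col3a1 at 3524.0 units in TAZ-deficient lung and 3422.8 units in wild type lung and Col1a2 at 1868.5 and 1829.7 units. Lung epithelium (8 measured, median 0.05), mesothelium (4 measured, median 0.09) and leukocytes (6 measured, median -0.15) likewise had 0 genes past 1.5-fold. Their brightest genes were Sftpc (4121.5 units in TAZ-deficient lung and 4142.5 units in wild type lung) and Epcam (1335.8 and 1287.4 units) of the epithelium, Krt19 (441.9 and 490.8 units) and Upk3b (280.3 and 239.9 units) of the mesothelium, and Csf1r (279.0 and 280.0 units) and C1qa (121.4 and 156.4 units) of leukocytes. The 3 embryonic globins of the red cell list were higher, Hba-x being 3.60-fold, Hbb-bh1 3.10-fold and Hbb-y 3.05-fold higher in TAZ-deficient lung. The other 2 measured red cell genes read lower, Alas2 with 609.2 units in TAZ-deficient lung against 662.4 units in wild type lung and Slc4a1 with 148.2 against 195.2 units.

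**Figure D4:**
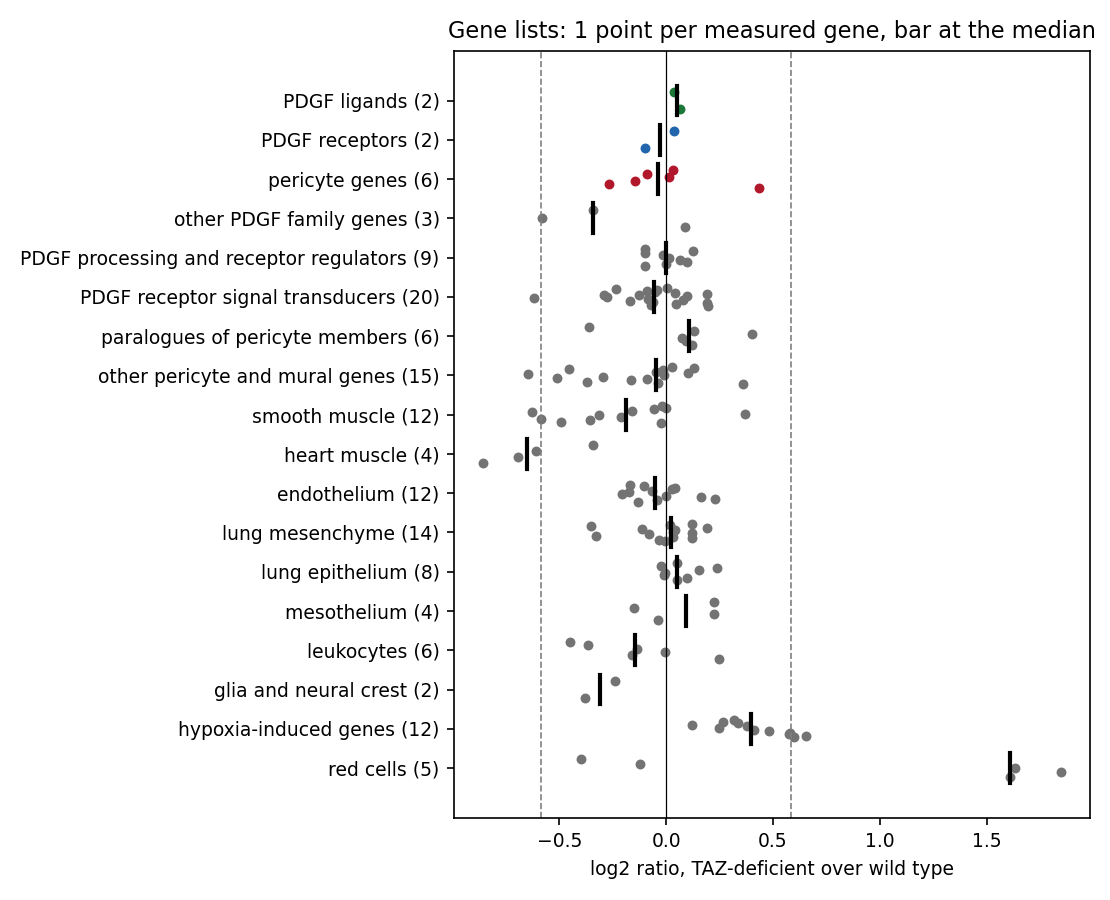
Log2 ratio (horizontal, TAZ-deficient to wild type) for the measured genes of each list, 1 point per gene by its brightest probe set, with a black bar at the list median, dashed lines at 1.5-fold and the number measured in brackets. All 10 PDGF and pericyte genes lie between the dashed lines, while the hypoxia-induced list lies above 0 and the heart muscle list below 0.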

How the data were processed

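Intensity values were deposited by the authors on a linear scale, with 1 decimal. The submitters' processing notes list GCOS and MAS5, with neither role nor version. Biotin-labelled cRNA was made from oligo(dT)-primed cDNA, per the labels' protocols. The trimmed mean (2% off each end) was 100 on both arrays, which shows a scaling of whole arrays. Detection calls were not used here.

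Of 45101 probe sets 64 were controls. The platform annotation gave 1 gene for 34945 and several for 932, and did not list 9160. For 34741, symbols were brought up to date with RefSeq (GRCm38.p6) by Entrez identifier. The brightest probe set by mean log2 signal stood for a gene. Signals under the floor were raised to it before log2, and a fold with 1 such signal is written "at least". All 10 genes were named with every probe set, and Wwtr1 as the check of the labels. Of each list up to 3 measured genes past 1.5-fold were named, or else the 2 brightest, with all measured paralogues and other PDGF family genes. Other genes are named only as being under the floor.

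With 2 arrays, their number limits precision. The members and lists were chosen with earlier results of these data known. The counting was tested on simulated data with folds set only in bright probe sets. Dim ones, such as those of Cspg4 and the third of Pdgfra, were not covered. Python 3.11.15, pandas 2.3.3 and statsmodels 0.14.6 (loess, span 0.4) were used.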

Additional observations from a re-analysis of the deposited data

How the results depend on the processing

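No paired analysis was possible because each group was 1 array. Without replicates, values were compared with the spread of 1 probe set, taken from its disagreement with another of the gene (log2 SD 0.20). The alternatives were floors at the 25th and 75th percentile, median centring, quantile normalization, loess, the median over probe sets, leaving out probe sets shared between transcripts, and a pseudocount of 16 in place of the floor. Of 210 values of single genes and probe sets of the set under these alternatives, 209 moved by less than that SD. The exception was the third Pdgfra probe set, at -0.62 with the pseudocount. Many of the 210 had no room to move, so that the count says little about stability. Neither a changed floor nor leaving out shared probe sets altered the ratio of any probe set that stayed in. Except with the median over probe sets, a gene's value also repeated that of its brightest probe set. The count of genes of the set past 1.5-fold was 0 under all 8, while that of probe sets was 1, or 0 with the floor at the 75th percentile, which leaves 11 of the 21 probe sets measured. The median over the genes ran from -0.04 (median over probe sets, and floor at the 75th percentile, 8 genes) to 0.04 (quantile normalization and loess). Over all measured probe sets, 4380 were past 1.5-fold with the floor at the 25th percentile, 56 at the 75th and 307 with the pseudocount, beside 730. By gene the counts were 1994, 26 and 132, beside 331. Abcc9 was at -0.33 without shared probe sets, since its brightest probe set is a shared one. Dim probe sets, Cspg4 and the third of Pdgfra among them, are the least precise.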
